A study of Mus musculus with 10 samples.

Results

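Cajal-Retzius cells are the first neurons to settle at the surface of the developing neocortex, and 7 genes known as their markers were followed here in ribosome footprints. They are the transcription factor genes Trp73 (ENSMUSG00000029026), Lhx1 (ENSMUSG00000018698), Lhx5 (ENSMUSG00000029595), Lhx9 (ENSMUSG00000019230), Ebf2 (ENSMUSG00000022053) and Ebf3 (ENSMUSG00000010476), and Calb2 (ENSMUSG00000003657), which encodes the calcium-binding protein calretinin. The genes were chosen by name, with earlier results of these data known. All 7 of the 7 were found among the 22373 genes measured and passed the filter of 32 footprints in at least one stage. Neocortex was dissected from wild-type CD-1 mice of both sexes at E12.5, E14, E15.5, E17 (days after timed mating) and P0 (the day of birth), with no treatment other than the RNase T1 and RNase A digestion that all libraries share. Each stage had 2 libraries, and each library was made from pooled brains, so the spread between replicates is one between pools and may be partly technical.

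Cajal-Retzius cells arise at the borders of the cortical field, mainly in the cortical hem, the septum and the pallial-subpallial boundary, and migrate beneath the meninges to cover the cortex before the cortical plate forms. There they secrete reelin, the product of Reln, which guides the layering of later-born neurons, and many of them die after birth. The p73, LIM-homeodomain and EBF transcription factors mark cells from different origins, and none of these genes belongs to Cajal-Retzius cells alone. Lhx9 and the EBF genes are also known from the diencephalon and other early neurons, and Calb2 is also used by a class of cortical interneurons.

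Ribo-seq counts mRNA fragments protected by ribosomes (footprints), so a value here depends on how much mRNA a gene made and on how densely ribosomes covered it. Levels are given in CPM, counts relative to a library size that was scaled by TMM factors to correct for differences in composition. In bulk tissue, fewer cells of a type and fewer footprints per cell cannot be told apart. Levels were not divided by gene length, so stages are compared within a gene and not genes with each other. The libraries held 7544404 to 36129988 counts, with P0 replicate 1 the shallowest. Replicates differed by an SD of 0.13 to 0.22 (log2 ratio, over genes) in the embryonic stages and of 0.54 at P0, so changes to P0 carry more error. The dorsal telencephalon marker Emx1 was at 12.3 to 56.5 CPM and Neurod6, a gene of cortical projection neurons, at 114 to 294 CPM in all libraries.

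From E12.5 to P0 the 6 transcription factor genes fell and Calb2 rose. Lhx9 fell the furthest, by 48.5-fold, and Ebf2 by 22.7-fold, whereas Ebf3 fell 5.63-fold, Trp73 and Lhx1 2.90-fold each and Lhx5 1.63-fold, the one call that most alternatives lost. Calb2 rose 1.95-fold over the same time. Calls rest on limma-voom, with p adjusted by Benjamini-Hochberg over 13484 genes and required to be under 0.05, and with a change of at least 0.32 on the log2 scale. By this rule all 7 of the 7 genes were called changed at P0 against E12.5, as were 62.1% of all genes tested, 4313 of them lower and 4058 higher. All 7 also passed the F test over the stages (adjusted p of 2.56e-06 to 0.0274), as did 63.8% of all genes. With shares of this size among all genes, the number of members called across the whole span says little about them, and their order, timing and size are described below gene by gene.

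**Figure D1:**
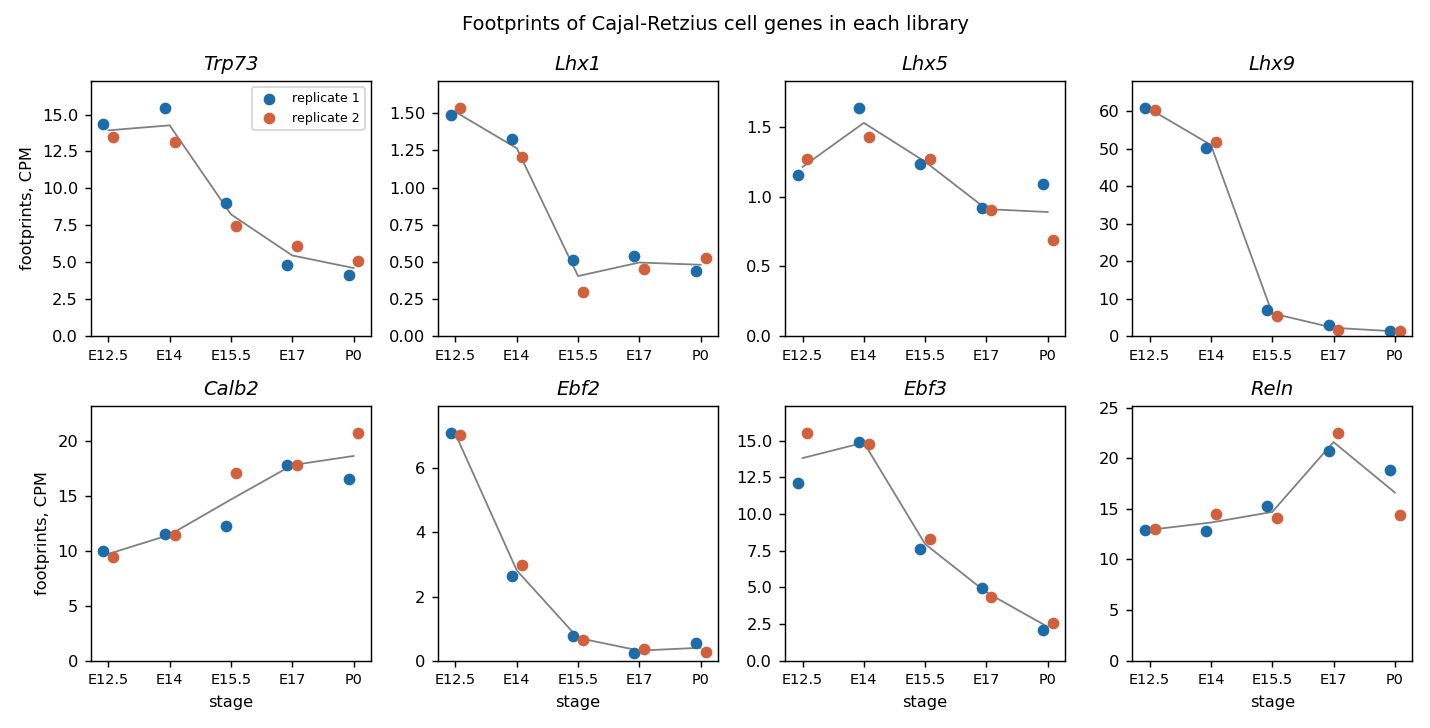
Footprints of the 7 genes, and of Reln, in each library, in CPM (y axis, linear from 0 and scaled per gene) by stage (x axis). Points are libraries coloured by replicate, and the line joins the stage means of 2 libraries. Lhx9 dropped from 50.3 and 51.8 CPM at E14 to 6.84 and 5.28 at E15.5, while Calb2 was at 9.96 and 9.46 CPM at E12.5 and at 16.5 and 20.7 at P0.

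Trp73 encodes p73, a relative of p53 that Cajal-Retzius cells of hem and septum origin need for survival. The gene has an upstream start and an internal start, from which the full-length form (TAp73) and the form that lacks the transactivation domain (deltaNp73) are made. DeltaNp73 is the form best known from Cajal-Retzius cells. The counts are per gene and do not separate the forms. Each form has its own start, and the stretch of 250 bases before each start is shown. Both come from RefSeq on GRCm38.p6, minus strand, and are written 5′ to 3′ along the gene. The capitals mark a p53 family site, and the starts lie 42702 bases apart.

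Trp73 internal start, chr4:154097174-154097423: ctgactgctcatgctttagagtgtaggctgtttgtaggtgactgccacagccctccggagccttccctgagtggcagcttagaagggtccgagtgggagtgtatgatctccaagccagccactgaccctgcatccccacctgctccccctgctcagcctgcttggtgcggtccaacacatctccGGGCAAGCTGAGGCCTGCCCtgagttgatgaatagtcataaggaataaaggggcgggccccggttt
Trp73 upstream start, chr4:154139876-154140125: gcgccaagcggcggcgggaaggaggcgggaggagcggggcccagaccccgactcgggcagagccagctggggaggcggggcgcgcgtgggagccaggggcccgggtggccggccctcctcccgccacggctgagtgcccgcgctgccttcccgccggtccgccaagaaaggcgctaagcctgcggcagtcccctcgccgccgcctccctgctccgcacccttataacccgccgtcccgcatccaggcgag

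The site before the internal start holds 2 half-sites of 10 bases, each with at most 1 mismatch to the p53 family consensus and with a spacer of at most 1 base, and ends 46 bases before the start. The search was made with this site already known. Promoter entries were found for 4 of the 7 genes, Trp73, Lhx1, Lhx9 and Ebf3. The same search matched 0.938% of 32851 RefSeq promoters of the same length and none of their other 4 entries. GC content was 58.4% before the internal start and 77.2% before the upstream start, against a median of 52.4% over all promoters. On both strands, none of the 5 promoters held the homeodomain core TAATTA (4.84% of all promoters), the EBF palindrome, TCCC and GGGA set 2 bases apart (0.779%), or TATAAA (12.4%). The E-box CANNTG was present in both Trp73 promoters and in that of Lhx9, as in 66.2% of all promoters. These matches describe letters in the window and were not tied to any measurement here.

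Trp73 fell between E14 and E15.5, after values at E12.5 and E14 that overlapped. It was at 14.4 and 13.5 CPM at E12.5 (261 and 361 counts) and at 15.4 and 13.1 CPM at E14. The level was 9.01 and 7.47 CPM at E15.5 and 4.79 and 6.12 CPM at E17, and the P0 libraries held 4.13 and 5.08 CPM (38 and 213 counts). Both libraries of E15.5 were below all 4 earlier libraries and above all 4 later ones, whereas E12.5 overlapped E14 and E17 overlapped P0. The fall from E14 to E15.5 was 1.72-fold, a log2 fold change of -0.78 (SE 0.16, adjusted p = 0.00623). Without replicate 2 of E15.5 the change was -0.65 and was no longer called. The step from E15.5 to E17, -0.61 (SE 0.17), was not called (adjusted p = 0.0638). Over 21 alternative settings its adjusted p ran from 0.00763 to 0.366, and it was called in 5 of them, among them each of the settings that left out a P0 library. In the order of levels, E14 and E12.5 were not separated beyond their spread (adjusted p = 0.951, interval 0.796-fold to 1.31-fold), nor were E17 and P0 (adjusted p = 0.548, interval 0.656-fold to 1.20-fold).

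The LIM-homeodomain genes encode transcription factors that act together with LDB cofactors. Lhx9 is expressed in early-born neurons of the marginal zone. It was at 60.8 and 60.5 CPM at E12.5 (1106 and 1618 counts) and at 50.3 and 51.8 CPM at E14. By E15.5 it was at 6.84 and 5.28 CPM, by E17 at 2.83 and 1.58 CPM, and at P0 at 1.31 and 1.22 CPM (12 and 51 counts). Stage followed stage downward with no overlap between the libraries of neighbouring stages. The step from E14 to E15.5 was 8.40-fold (log2 fold change -3.07, SE 0.19, adjusted p = 6.04e-05), and on the log2 scale it held the larger part of the fall to P0. The next step, to E17, was 2.81-fold (log2 fold change -1.49, SE 0.24, adjusted p = 0.0142). Leaving out any 1 of the 4 libraries of E15.5 and E17 ended that call, with changes from -1.93 to -1.09. In those fits nearly all calls over all genes were lost in this step too. The first and last steps were not called, with changes of -0.25 from E12.5 to E14 (adjusted p = 0.525) and -0.79 from E17 to P0 (adjusted p = 0.119). Without replicate 2 of E17, the last step was -1.18 and was called.

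Lhx1, which with its close relative Lhx5 marks Cajal-Retzius cells and acts in early forebrain patterning, gave few footprints. It was at 1.49 and 1.53 CPM at E12.5 (27 and 41 counts) and at 1.33 and 1.20 CPM at E14 (30 and 38 counts). The E15.5 libraries held 0.512 and 0.296 CPM (17 and 7 counts), those of E17 held 0.540 and 0.451 CPM, and those of P0 held 0.435 and 0.525 CPM (4 and 22 counts). The 4 libraries of E12.5 and E14 all lay above the 6 later ones, and the 3 later stages overlapped. The fall from E14 to E15.5 was 2.96-fold (log2 fold change -1.57, SE 0.29, adjusted p = 0.00421), and neither later step was called (0.26, adjusted p = 0.695, and 0.04, adjusted p = 0.940). The interval of the step from E15.5 to E17 ran from 0.699-fold to 2.06-fold, so the data leave both a fall and a rise within that range possible. The call from E12.5 to P0 (-1.54) was lost with sample quality weights, where the change was -1.55 (adjusted p = 0.0857). It held in the other 19 alternatives.

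Lhx5 kept most of its level between E14 and E15.5, where Lhx1 did not, although the difference between the genes was not tested. It was at 1.16 and 1.27 CPM at E12.5, with 1.63 and 1.43 CPM at E14 followed by 1.24 and 1.27 CPM at E15.5 (41 and 30 counts). It was at 0.921 and 0.901 CPM at E17 and at 1.09 and 0.692 CPM at P0 (10 and 29 counts). Levels were highest at E14 and lowest at E17 and P0, which overlapped, and E12.5 overlapped E15.5. None of the 4 steps between neighbouring stages was called, with limma-voom or in any alternative, with changes between -0.45 and 0.30, adjusted p between 0.244 and 0.552 and a lowest unadjusted p of 0.0734. The change from E12.5 to P0 was called (log2 fold change -0.71, SE 0.24, adjusted p = 0.0323), but 14 of 20 alternatives lost the call, with values from -0.82 to -0.091 and adjusted p from 0.0174 to 0.824. Its lowest library, P0 replicate 2, carried much of it, since the change was -0.091 without that library. Within each library, which needs no scaling, the ratio of Lhx1 to Lhx5 counts was 1.29 and 1.21 at E12.5, then 0.811 and 0.844 at E14, then 0.415 and 0.233 at E15.5. It was 0.586 and 0.500 at E17 and 0.400 and 0.759 at P0, so every library from E15.5 on was below the 4 earlier ones.

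The EBF genes encode helix-loop-helix factors of the COE family that act in early neuronal differentiation and migration. Ebf2 was the only gene of the 7 called from E12.5 to E14. It was at 7.10 and 7.03 CPM at E12.5 (129 and 188 counts) and at 2.65 and 2.98 CPM at E14 (60 and 94 counts). The E15.5 libraries held 0.783 and 0.633 CPM, those of E17 held 0.254 and 0.375 CPM (8 and 10 counts), and those of P0 held 0.544 and 0.263 CPM (5 and 11 counts). Libraries of neighbouring stages did not overlap up to E17, and those of E17 and P0 did. The first step was 2.49-fold (log2 fold change -1.32, SE 0.15, adjusted p = 0.0238). The second was 3.87-fold (log2 fold change -1.95, SE 0.24, adjusted p = 0.000560). The size of the first step ran only from -1.40 to -1.24 over 21 alternatives, but the call was lost in 13 of them. Of these, 8 left out a single library, and there nearly all calls over all genes were lost too. DESeq2 gave Ebf2 no adjusted p in this step (change -1.34), which was counted as not called. Over all genes this step had 86 calls with limma-voom, 85 with edgeR and 399 with DESeq2. It had 27 with every gene with a count, 4 with the replicate block and 11 with the 2 stages alone. The third step, -1.20, was not called (SE 0.38, adjusted p = 0.0923), and its adjusted p ran from 0.0123 to 0.421 over the alternatives, 5 of which called it. From E17 to P0 the change was -0.04 with an interval from 0.487-fold to 1.95-fold, so at 5 to 11 counts a library its direction was not detectable.

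Ebf3 was called lower in each of the 3 steps from E14 on. It was at 12.1 and 15.52 CPM at E12.5 (220 and 415 counts) and at 14.9 and 14.8 CPM at E14. By E15.5 it had 7.62 and 8.28 CPM, by E17 it had 4.95 and 4.36 CPM, and by P0 it had 2.07 and 2.55 CPM (19 and 107 counts). E14 lay within the range of E12.5, and each later stage lay below the one before it in both libraries. The changes were -0.91 from E14 to E15.5 (SE 0.14, adjusted p = 0.00182), -0.76 from E15.5 to E17 (SE 0.16, adjusted p = 0.0247) and -0.93 from E17 to P0 (SE 0.19, adjusted p = 0.0140). The first of these was called in all 21 alternatives. The second was lost without any 1 of the libraries of E15.5 and E17, where nearly all calls over all genes were lost too. The third was lost in 3 of 20 alternatives (without replicate 1 of E17, with sample quality weights, and with the 2 stages alone). Its adjusted p was 0.184 with quality weights. Over all genes this last step had 2767 calls with limma-voom, 698 with quality weights and 0 with the 2 stages alone.

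Within a library, Ebf3 gave 1.71 and 2.21 footprints for each of Ebf2 at E12.5 and 5.63 and 4.97 at E14. At E15.5 the ratio was 9.73 and 13.1, at E17 it was 19.5 and 11.6, and by P0 it was 3.80 and 9.73. Up to E15.5 both libraries of each stage were above both of the stage before, and the values spread widely afterwards, where Ebf2 had 5 to 11 counts. These ratios were not tested. The ratio of Ebf3 to Trp73 counts was 0.712 to 1.15 in the libraries up to E17 and was 0.500 and 0.502 at P0. Of all footprints on the EBF family (Ebf1 to Ebf4), Ebf2 took 29.5% and 24.9% at E12.5 and 3.36% and 5.35% at E17. Ebf3 took between 43.2% and 68.4% in every library.

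Calb2 moved against the transcription factor genes. It was at 9.96 and 9.46 CPM at E12.5 (181 and 253 counts), with 11.5 and 11.4 CPM at E14 and then 12.3 and 17.1 CPM at E15.5. It was at 17.8 CPM in both libraries of E17 and at 16.5 and 20.7 CPM at P0 (152 and 868 counts). Libraries rose from stage to stage without overlap up to E17, and E17 lay within the range of P0. None of the 4 steps was called, with changes of 0.24, 0.33, 0.31 and 0.09 and adjusted p of 0.575, 0.169, 0.288 and 0.727 (limma-voom, lowest unadjusted p 0.0881). The step from E14 to E15.5 was called in 2 of 21 alternatives, as 0.62 with total counts only and as 0.58 without replicate 1 of E15.5. The rise shows against E12.5, where on the log2 scale it was 0.57, or 1.48-fold, at E15.5 (SE 0.17, adjusted p = 0.0276), 1.83-fold at E17 (0.87, SE 0.17, adjusted p = 0.00299) and 1.95-fold at P0 (0.96, SE 0.18, adjusted p = 0.00163). The change to E15.5 lost its call without replicate 1 or 2 of E12.5 or replicate 2 of E15.5, with values from 0.34 and an adjusted p of up to 0.151, while those to E17 and P0 were called in every alternative.

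Set against Trp73 in the same library, Calb2 gave 0.693 and 0.701 footprints for each of Trp73 at E12.5, and 0.745 and 0.870 at E14. At E15.5 the ratio was 1.36 and 2.28, at E17 it was 3.71 and 2.91, and by P0 it was 4.00 and 4.08. Every library of E15.5 and later was above every earlier one. Reln, the reelin gene, did not follow the transcription factor genes either. It was at 12.9 and 13.0 CPM at E12.5 and at 20.7 and 22.5 CPM at E17, the stage at which it was highest (0.74 against E12.5, SE 0.14, adjusted p = 0.00248), and its ratio to Trp73 was 0.831 to 1.10 at E12.5 and E14 and 2.84 to 4.55 at E17 and P0.

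**Figure D2:**
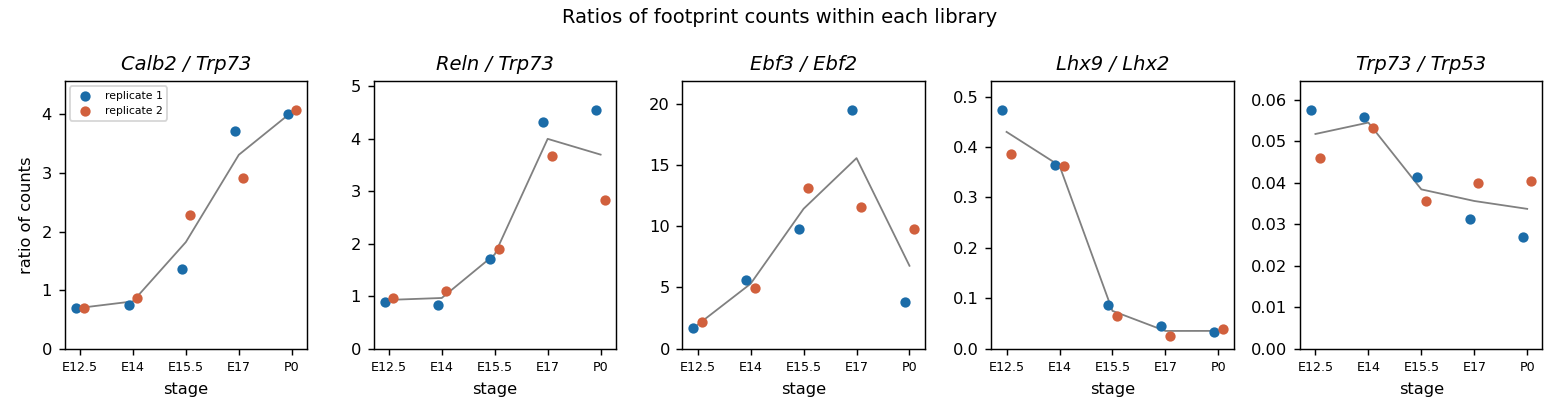
Ratios of footprint counts between a pair of genes within each library (y axes, linear from 0) by stage (x axes). Points are libraries and the line joins the means of 2. From E15.5 on Calb2 and Reln were higher against Trp73 than in all earlier libraries. The Ebf3 to Ebf2 ratio was between 9.73 and 19.5 at E15.5 and E17. The Lhx9 to Lhx2 ratio was 0.474 and 0.386 at E12.5 and 0.0325 and 0.0381 by P0. The Trp73 to Trp53 ratio was 0.0459 to 0.0576 at E12.5 and E14 and 0.0269 to 0.0413 later.

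Of the 4 steps, that from E14 to E15.5 held the most calls. From E12.5 to E14 only Ebf2 was called, and it was lower (1 of 7). In that step 0.141% of all genes were called lower and 0.497% higher. From E14 to E15.5, Trp73, Lhx1, Lhx9, Ebf2 and Ebf3 were called lower, which is 5 of 7 against 19.6% of all genes called lower and 16.5% higher. The median change of the 7 genes was -0.91, and that of all genes was -0.009. From E15.5 to E17, Lhx9 and Ebf3 were called lower, 2 of 7 against 3.43% of all genes lower and 5.61% higher. From E17 to P0, Ebf3 alone was called lower, 1 of 7 against 11.1% of all genes lower and 9.46% higher, which is near the background. The median changes of the 7 genes in the first, the third and the last step were 0.03, -0.61 and -0.17.

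Against E12.5, Trp73, Lhx1, Lhx9, Ebf2 and Ebf3 were called lower and Calb2 higher both at E15.5 and at E17. At E15.5, 24.0% of all genes were called lower and 22.2% higher, and at E17 these shares were 27.8% and 26.9%. The comparisons share the E12.5 libraries. The median of the 7 genes against E12.5 was -0.80 at E15.5, then -1.57 and, by P0, -1.54. Of the 49 changes (7 genes in 7 comparisons), 28 were called, and 19 of these were called in every alternative. Scaling by total counts alone, without TMM factors, moved the median of all genes up by 0.294 from E14 to E15.5, by 0.108 from E17 to P0, by 0.354 from E12.5 to E15.5, by 0.416 from E12.5 to E17 and by 0.527 from E12.5 to P0, and the changes given here are relative to the TMM scale. With total counts alone, the 5 genes that were called lower from E14 to E15.5 were still called, and Calb2 was called higher in that step (0.62). The calls of Trp73 from E12.5 to E15.5 (-0.40) and of Lhx5 from E12.5 to P0 (-0.19) were lost.

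**Figure D3:**
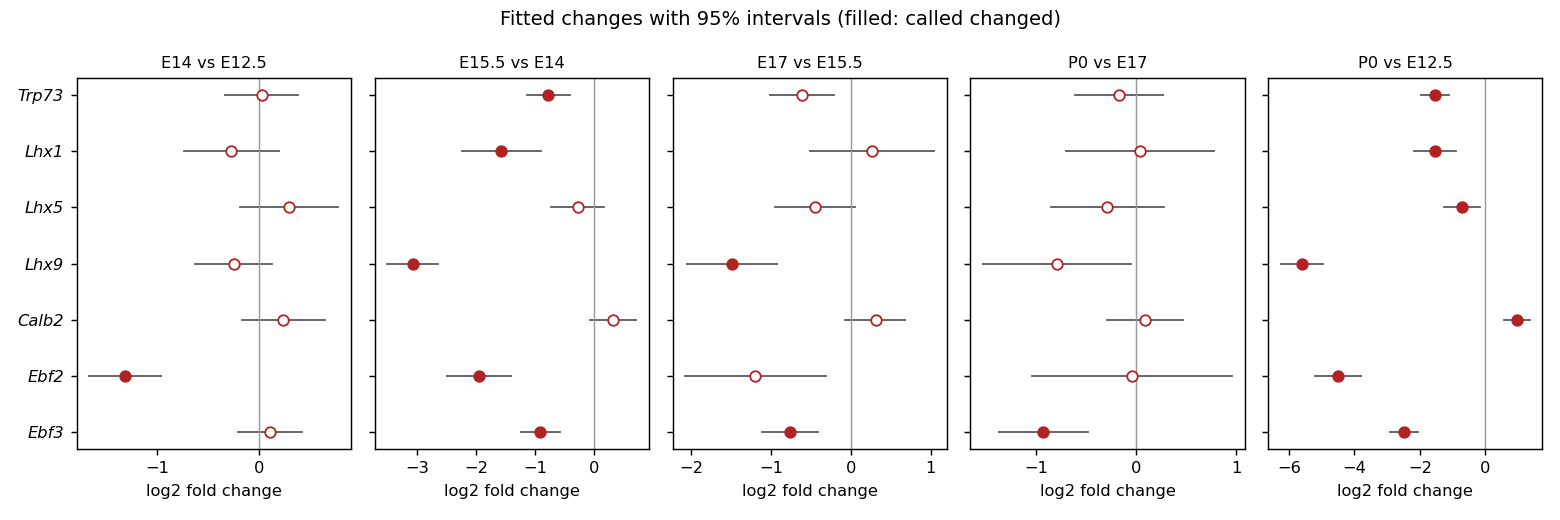
Fitted log2 fold changes of the 7 genes (x axes, scaled per panel) in the 4 steps between neighbouring stages and from E12.5 to P0. Circles are fitted values and lines are 95% intervals from limma-voom over 10 libraries. Filled circles were called changed, which in the step from E14 to E15.5 holds for Trp73, Lhx1, Lhx9, Ebf2 and Ebf3, with Lhx9 at -3.07.

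Genes of tissues that border the neocortex were also lower at E15.5 than at E14, a step in which 19.6% of all genes were called lower. Of 10 meningeal fibroblast genes, all 10 were called lower in this step (median change -4.36), and their summed level was 68.6 to 106 CPM at E12.5 and E14 and 3.0 to 8.32 CPM from E15.5 on. Of the 10 choroid plexus genes 8 were tested, and all 8 were lower (median -5.59). Their summed level was 287 to 346 CPM at E12.5, 1160 to 1170 CPM at E14 and 6.32 to 15.4 CPM later, most of it from Ttr, the thyroid hormone carrier of the choroid plexus. From E15.5 on, Ttr was still at 4.45 to 13.4 CPM and the fibroblast gene Dcn at 0.883 to 1.65 CPM, while Folr1, Aqp1, Otx2, Kcne2, Slc4a5, Cldn2, Lum, Aldh1a2 and Slc6a13 were at 0 in at least 1 library. The meninges cover, and the choroid plexus adjoins, the regions where Cajal-Retzius cells are born and settle, and the part of the dissected tissue in the falls of Trp73, Lhx1, Lhx9, Ebf2 and Ebf3 was not tested.

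The genes of the birthplaces of Cajal-Retzius cells fell in the same step, in which 19.6% of all genes were called lower and 16.5% higher. Of 20 such genes 16 were tested, and 15 were called lower from E14 to E15.5 (median -1.92), Rspo3 being the other one (-0.50, SE 0.20, adjusted p = 0.0809). Wnt8b, a signal of the hem and adjoining medial cortex, was at 2.61 and 3.14 CPM at E14 and at 0.0603 and 0.127 CPM (2 and 3 counts) at E15.5. The transcription factor gene Zic1, of the septum and of meningeal cells, changed by -1.41 (SE 0.13, adjusted p = 0.000181). The summed level of the list was 105 to 124 CPM at E12.5 and E14. It was 34.6 to 38.8 CPM at E15.5, then 28.5 to 30.1 CPM at E17 and finally 17.4 to 19.5 CPM. Of 10 genes of the thalamus and other diencephalon only 2 were tested, of which Tcf7l2 fell (-0.69, SE 0.14, adjusted p = 0.00623). The summed level of the 10 was 29.5 to 34.8 CPM at E12.5 and E14 and 19.1 to 21.4 CPM at E15.5. Nearly all of it came from Tcf7l2, at 27.6 to 33.4 CPM at E12.5 and E14 and at 18.4 to 20.1 CPM at E15.5. Of 10 neocortical genes, 4 were called lower (Emx1, Lhx2, Pax6 and Eomes) and 3 higher, Neurod6 and Neurod2 among them, in this step, with a median of -0.03.

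The rise of Calb2 ran beside a rise of interneuron genes. Of 12 genes of interneurons and the ganglionic eminences, 8 were called higher from E14 to E15.5 and 1, Prox1, lower (median 1.46). The shares of all genes in that step were 16.5% higher and 19.6% lower. From E12.5 to P0, 9 were called higher, against 30.1% of all genes. Their summed level was 38.6 to 41.3 CPM at E12.5 and 60.7 to 61.8 CPM at E14. From E15.5 it was 194 to 198 CPM, then 266 to 267 CPM and finally 285 to 316 CPM. Gad1, which makes the transmitter GABA, was at 1.65 and 2.21 CPM at E12.5 and at 51.1 and 54.1 CPM at P0. The part of interneurons in the Calb2 values was not tested.

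**Figure D4:**
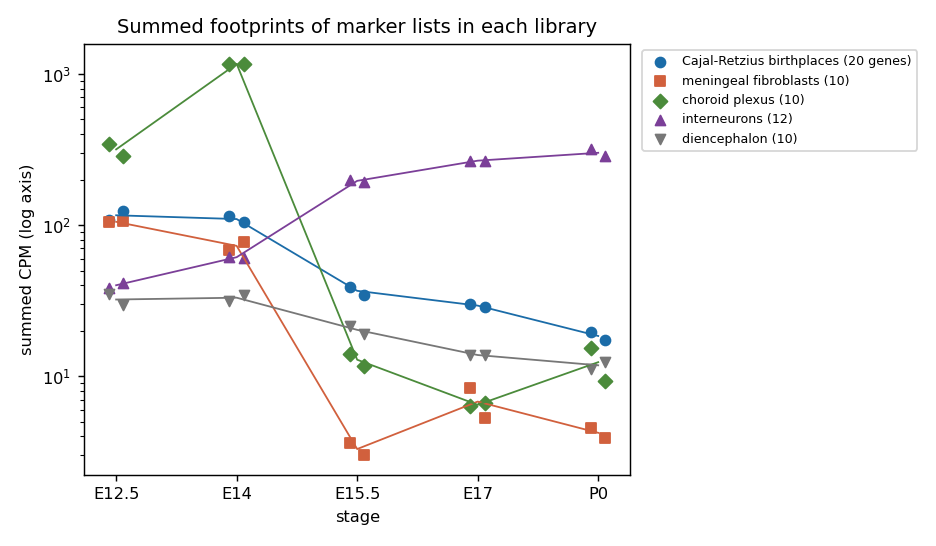
Summed CPM (y axis, log scale) of 5 marker lists in each library by stage (x axis), with lines through the means of 2 libraries. The meningeal, choroid plexus and birthplace lists dropped between E14 and E15.5, from 105 to 114 CPM down to 34.6 to 38.8 CPM for the birthplaces, while the interneuron list rose from 60.7 to 61.8 CPM up to 194 to 198 CPM.

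Other genes known from Cajal-Retzius cells moved in both directions. Of Reln, Ndnf, Nhlh2, Cacna2d2, Cxcr4, Car10 and Tbr1, only Nhlh2, a helix-loop-helix factor, was called lower from E14 to E15.5 (-0.84, SE 0.25, adjusted p = 0.0284). Ndnf, a secreted protein that later also marks layer 1 interneurons, was called higher (2.39, SE 0.29, adjusted p = 0.000529), and so was Car10 (1.77, SE 0.56, adjusted p = 0.0370). Both had few counts at E14, with 10 and 24 for Ndnf and 5 and 30 for Car10. At E15.5 they had 108 and 79 (Ndnf) and 54 and 53 (Car10). The median of these 7 genes was 0.11 in this step, in which 19.6% of all genes were called lower and 16.5% higher. From E17 to P0, 3 of the 7 were called lower, namely Ndnf, Cacna2d2 and Cxcr4, against 11.1% of all genes. The median of the 7 was -0.72. The chemokine receptor gene Cxcr4, which holds migrating Cajal-Retzius cells beneath the meninges, changed by -1.16 in that step (SE 0.18, adjusted p = 0.00466).

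Relatives of the 7 genes moved in both directions. Of 15 genes of the same families 7 were tested, and between E14 and E15.5 Lhx2, Lmx1a and Ebf1 were called lower and Lhx6 and Calb1 higher. The shares of all genes in this step were 19.6% lower and 16.5% higher. Lhx6, the interneuron member of the LIM-homeodomain family, rose from 7.65 and 7.63 CPM at E12.5 to 78.9 and 64.3 CPM at P0. Lhx9 took 30.0% and 26.0% of all footprints on 12 LIM-homeodomain genes at E12.5 and 23.3% and 23.4% at E14, but 4.30% and 3.40% at E15.5 and 1.07% and 1.23% at P0. Lhx6 took 3.77% and 3.28% at E12.5 and 64.7% and 65.1% at P0. These shares are of counts and not per length, so only their change with stage is described. Against Lhx2, which acts in cortical progenitors and was itself called lower, Lhx9 fell from 0.364 and 0.362 footprints for each of Lhx2 at E14 to 0.0857 and 0.0643 at E15.5. Trp53 was not called from E14 to E15.5 (-0.28, SE 0.13, adjusted p = 0.116), and the ratio of Trp73 to Trp53 was 0.0459 to 0.0576 at E12.5 and E14 and 0.0269 to 0.0413 later.

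The partners of these factors were all measured, and 9 of 13 were called changed from E14 to E15.5, against 36.1% of all genes. The LIM cofactor genes Ldb2 (2.03, SE 0.16, adjusted p = 0.000115), Lmo3, Lmo4, Ssbp2 and Ssbp3 were called higher, as was Mdm4, which encodes a p53-binding regulator. Lmo2 (-1.12, SE 0.18, adjusted p = 0.00181) and the zinc finger genes Zfp423 (-1.25, SE 0.16, adjusted p = 0.000591) and Zfp521 (-0.80, SE 0.16, adjusted p = 0.00518), whose proteins bind EBF factors, were called lower. Ldb1, the general LIM cofactor, was at 192 to 316 CPM in all libraries and was not called in this step (0.17, SE 0.084, adjusted p = 0.154).

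Across the 10 libraries, the 6 transcription factor genes ran together and Calb2 ran against them. Pearson correlations of log2 CPM were 0.49 to 0.96 among the 6, highest between Trp73 and Lhx9 and lowest between Lhx1 and Lhx5, and -0.95 to -0.74 between Calb2 and the others. The libraries share their stages, so these values describe a common course over time. Among 9195 well-counted genes (mean of 100 counts or more), Trp73 was most like Phka2 (r = 0.989), Txlna (0.989) and Etl4 (0.985), and Lhx9 was most like Sall1, Rfwd3 and Tanc1 (0.996 each). Ebf2 was most like Pgk1 (0.989), Eif4ebp1 (0.987) and Srsf3 (0.987), and Ebf3 most like Dhrs4 (0.997), Tgif2 (0.995) and Vim (0.994). Lhx1 was most like Lsr (0.989), Cox6b2 (0.986) and Tmem176a (0.982), and Lhx5 most like Setd7 (0.980), Klc4 (0.977) and Tulp3 (0.975). Calb2 was most like Ubac1 (0.984), Arpc3 (0.969) and Max (0.969). Many genes share such courses over 5 stages, and the likeness holds over these 10 libraries only.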

How the data were processed

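Ribo-seq libraries of neocortex lysates digested with RNase T1 and RNase A were analysed, 10 in all, 2 at each of 5 stages as the labels give them. The authors deposited whole-number counts of footprints for each gene (22373 Ensembl identifiers, 22274 matched to a symbol). Per the study's methods the authors trimmed adapters, collapsed duplicates, removed rRNA, tRNA and snoRNA reads and aligned the rest with STAR (2.7.0 in the submitters' processing notes) to the coding transcripts and genome of GENCODE release M12, keeping reads that match several places. The methods also name DeepShape-prime for estimates per isoform and tximport for gene counts corrected for length. It is not stated whether the deposited whole numbers are such estimates after rounding or direct read counts, so near-identical relatives are uncertain, low counts may not be exact reads, and forms of a gene are not separated in the table. The labels give no batch.

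Genes with at least 32 counts in at least one stage (13484) were scaled by TMM (edgeR 4.0.16, R 4.3.3) and fitted with limma-voom (limma 3.58.1), 1 coefficient per stage over all libraries, with moderated two-sided tests and Benjamini-Hochberg adjustment. Comparisons were the 4 neighbouring steps and 3 longer spans, from E12.5 to each of the last 3 stages. A call needed an adjusted p under 0.05 and at least a 1.25-fold change, and the F test had no fold threshold. Alternatives (21) covered scaling, filters, weights, a replicate block, edgeR's quasi-likelihood test, DESeq2 1.42.0 and leaving out libraries. The code was tested on simulated data.

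The members, the marker lists (other Cajal-Retzius genes, their birthplaces, relatives, partners, neocortex, interneurons, diencephalon, choroid plexus, meninges) and the promoter motifs were chosen with earlier results of these data known. All members are reported, with the 3 genes (mean of at least 100 counts, not members) of highest Pearson correlation in log2 CPM with a prior count of 2. Genes of the lists are named where they were called in the comparison described or had the highest mean level, and Reln always. Ldb1, Rspo3 and the markers listed at 0 were named after their values were seen. Lhx2, Lhx6, Lmx1a and Tbr1 each stand in 2 lists.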

Additional observations from a re-analysis of the deposited data

How the results depend on the processing

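With 2 libraries per stage and few counts for Lhx1, Lhx5 and Ebf2, small steps were hard to call. The number of genes called stayed within 1.5 times in every alternative run for E14 to E15.5 and for the 3 spans that start at E12.5. From E12.5 to E14 the count was 1 (Ebf2) and became 0 with edgeR's quasi-likelihood test, DESeq2, every gene with a count, the replicate block and the 2 stages alone. In each of these Ebf2 had an unadjusted p under 0.05, as 1 member did with limma-voom. DESeq2 gave Ebf2 no adjusted p, so its 0 there is not a failed test. Leaving out single libraries gave 0 to 1. From E15.5 to E17 the count was 2 (Lhx9 and Ebf3) and became 4, with Trp73 and Ebf2 added, with sample quality weights, with the 2 stages alone and without both P0 libraries, the last chosen after seeing the data. Leaving out single libraries gave 0 to 4, where at the counts of 0 between 2 and 5 members had an unadjusted p under 0.05. From E17 to P0 the count was 1 (Ebf3) and became 0 with sample quality weights and with the 2 stages alone, where 1 member had an unadjusted p under 0.05, and was 0 to 2 without single libraries, reaching 2 (Lhx9 and Ebf3) without replicate 2 of E17. Where a stage is left with 1 library, that library is assumed to vary like the other stages. From E12.5 to E14 and from E15.5 to E17, nearly all calls over all genes were lost when a library of either compared stage was left out.

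Signs turned only in changes that were not called. Ebf2 from E17 to P0 was 0.061 with total counts only, 0.084 with edgeR, 0.14 with DESeq2, 0.066 with every gene with a count, 0.11 with quality weights, and -0.34 to 0.93 without single libraries. Lhx1 in that step was -0.0014 with edgeR and -0.073 to 0.17 without single libraries. Lhx5 was 0.018 from E14 to E15.5 with total counts only, and from E12.5 to E15.5 it was -0.0018 with RLE size factors and -0.029 to 0.10 without single libraries. The ranges without single libraries were -0.40 to 0.33 for Lhx5 and -0.072 to 0.22 for Calb2 from E17 to P0, -0.062 to 0.30 for Ebf3 and -0.082 to 0.15 for Trp73 from E12.5 to E14, and -0.042 to 0.70 for Lhx1 from E15.5 to E17. The cause was not tested. Of all single-gene values, 936 kept direction and call, 44 lost the call, 13 gained it and 19 turned sign.

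Scaling by total counts only moved the share of higher among called genes from 45.6% to 72.7% for E14 to E15.5, from 77.9% to 90.9% for E12.5 to E14, from 46.1% to 63.4% for E17 to P0, from 48.1% to 72.3% for E12.5 to E15.5, from 49.2% to 73.3% for E12.5 to E17 and from 48.5% to 72.0% for E12.5 to P0. Replicate numbers were not treated as pairs in the main fit. Over 4559 genes, replicate differences at E12.5 correlated by -0.63 to -0.11 with those at the other stages. Among the other stages the correlations were -0.04 to 0.43. With the replicate block Ebf2 from E12.5 to E14 was -1.32 (adjusted p = 0.0720) and Lhx5 from E12.5 to P0 was -0.67 (adjusted p = 0.0706), and it changed no other call of the 7 genes.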
